A study of Homo sapiens with 5 samples.

Results

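The subunits of RNA polymerases I, II and III and of the Mediator complex were described in HLF cells, an established hepatocellular carcinoma line. A gene was a member when its symbol began with POLR1, POLR2 or POLR3 and a subunit letter from A to L, or when it was MED followed by a number and at most 1 further letter. This gave 59 of the 12468 genes listed in the deposited tables, of which 5 encode polymerase I, 15 polymerase II, 10 polymerase III and 29 Mediator subunits. All 59 were listed in every table.

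The study asked how the deubiquitinase USP28 and its dimerization act on MYC and transcription, and sequenced RNA from 5 conditions with 1 deposited sample each. USP28-Ctrl cells carried a control guide (sgCtrl) and USP28-KO cells a guide against USP28 (sgUsp28). The other groups were USP28-KO cells transduced with the empty pRRL vector, with wildtype USP28 (USP28-WT) or with the monomeric mutant (USP28-M). All groups share the HLF background, and all but USP28-Ctrl share the USP28 guide. The knockout cells were obtained as clones and the transgenes were delivered by lentivirus.

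The deposited tables give 1 average per gene over all libraries of an edgeR fit, as log2 CPM (read counts scaled to the size of the library), and no value per sample. One fit, called here the USP28-KO table, covers USP28-Ctrl and USP28-KO. The other, called here the reconstitution tables, covers the vector, USP28-WT and USP28-M cells, and its average is the same in both tables made from it. The averages therefore carry no spread between replicates, the levels below are descriptions without a test, and the knockout could not be checked sample by sample. They come from bulk RNA, in which fewer cells that express a gene and less RNA per cell cannot be told apart.

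Polymerase I transcribes the large ribosomal RNA precursor, polymerase II the messenger RNAs, and polymerase III the transfer RNAs, 5S ribosomal RNA and other short RNAs. Each has a pair of large subunits that form the active site, a pair of assembly subunits, a stalk, and a set of small subunits that all of them use. Mediator binds polymerase II and transcription factors at enhancers and promoters. It is built of head, middle and tail modules around the scaffold MED14, and a detachable kinase module.

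MYC binds the E-box, of which CACGTG is the canonical form, and the study concerns MYC, so the members with this motif near their start site are shown. It was searched in RefSeq windows from 250 bases before to 50 bases after the start site (GRCh38.p14), and it reads the same on both strands. Windows were found for 41 of the 59 members, or 69.5%, which is under the 80% needed, so the share of members with a motif was void as a check. Among all genes with a window, 2396 of 27305 (8.8%) held it, and 1247 of 9756 (12.8%) did among genes of the deposited tables. It stood in 4 member windows, 3 of polymerase III genes and 1 of a Mediator gene. In the lines that follow, 30 bases around it are printed 5′ to 3′ on the strand of the gene, with the E-box in capitals.
POLR3A: agaggaagcggaCACGTGggacactctacg
POLR3C: gcccgcgtcggtCACGTGagttggccaggc
POLR3E: cccgctccccccCACGTGtccgccggagtt
MED13L: gccggcgcccgtCACGTGaccaagcgccag
The POLR3A stretch lies at chr10:78029533-78029562 on the minus strand, and its motif begins 35 bases before the start site. That of POLR3C lies at chr1:145823992-145824021 on the plus strand and begins 196 bases before the start. In POLR3E, at chr16:22297396-22297425 on the plus strand, the motif begins 1 base before the start and runs into the transcript. The MED13L stretch is at chr12:116277728-116277757 on the minus strand, with the motif 52 bases before the start. A match is a description of these letters only, and binding was not measured.

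Depth bears on how well a low level is known. The smallest steps between the averages of low genes matched a total near 7690000 reads for the USP28-KO table, all its libraries summed, with 96.6% of 1110 low genes within 0.1 of a whole read. In the reconstitution tables they matched a total near 30400000, but with only 62.7% of 1234 low genes within 0.1, so that estimate is loose. On this scale the averages of the members equalled 70 reads (MED30) to 1819 reads (POLR2A) in the USP28-KO table. These values include the constant that edgeR adds to counts before averaging, which was not taken off, so the reads behind them were fewer. Exact 95% Poisson intervals on these values were 54.6 to 88.4 and 1736.4 to 1904.6. They cover counting error only and are approximate for that reason. The cell line check gave 0 of 8 hepatocyte markers in the USP28-KO table and 1 of 8 (SERPINA1) in the reconstitution tables. The mesenchymal markers were all listed (5 of 5). In the USP28-KO table VIM was at 11.71 log2 CPM, CDH2 at 7.72, FN1 at 6.32, COL1A1 at 4.47 and ZEB1 at 4.31. Of the epithelial markers 2 of 5 were listed, KRT8 at 11.18 and KRT18 at 10.66 log2 CPM there. Both kinds of marker were thus present at high levels. None of the 3 blood cell markers was listed.

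Levels of different genes were compared per kilobase of the longest protein-coding transcript, as average log2 CPM per kb. Genes with no such transcript, POLR2J4 among them, were scaled by their longest transcript of any type. The median over all genes was 3.57 in the USP28-KO table and 3.15 in the reconstitution tables. Polymerase II stood above the other complexes, with a median over its members of 5.25 in the USP28-KO table and 5.60 in the reconstitution tables. Polymerase I had medians of 3.28 and 3.54, polymerase III of 3.73 and 3.53, and Mediator of 3.66 and 3.70. Thus 34 of the 59 members lay above the median of all genes in the USP28-KO table and 41 in the reconstitution tables, and of the polymerase II members 11 and 12 of 15 did. The medians of all genes come from different sets, 10858 genes in the USP28-KO table and 11940 in the reconstitution tables. The latter reach lower averages (0.40 against 1.70 log2 CPM). The median of the members was 3.74 and 3.80, so these counts are not compared between the tables. The distance of polymerase II above all genes kept its sign under every alternative tried (0.36 to 2.45). That of polymerase I, polymerase III and Mediator changed sign with the length used or the table, so no direction is given for them.

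**Figure D1:**
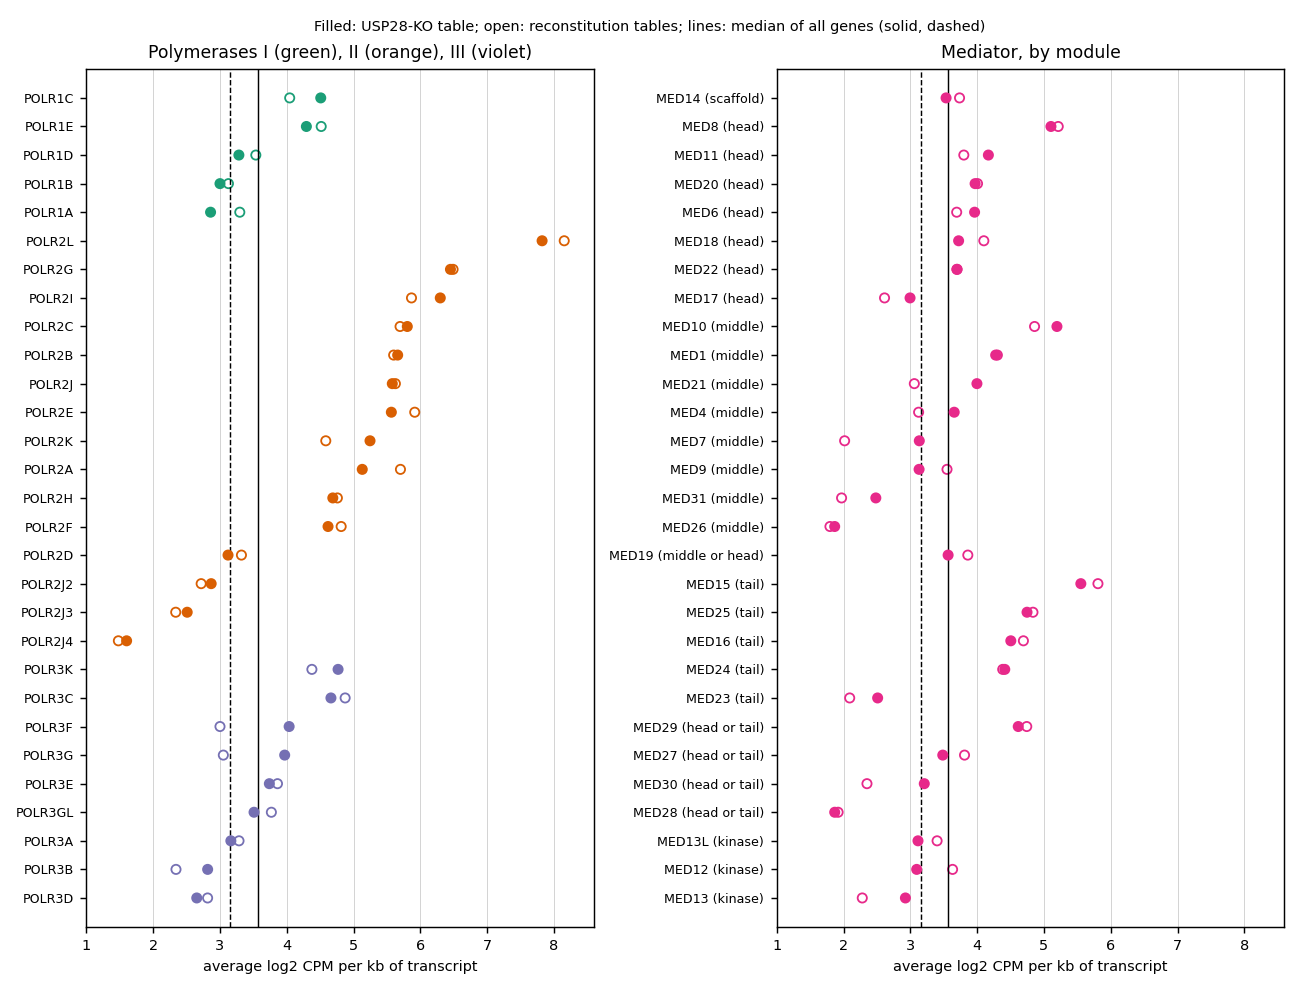
Average level of the members described in the text in log2 CPM per kb of transcript, with polymerase subunits on the left and Mediator subunits by module on the right. Filled points are the USP28-KO table and open points the reconstitution tables, and the solid and dashed lines are the medians of all genes in each (3.57 and 3.15). Most polymerase II subunits lie to the right of both lines, with POLR2L farthest at 7.82 and 8.15.

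Polymerase I was represented by its large subunits, the assembly pair and 1 peripheral subunit. POLR1A, the largest subunit, had an average of 6.53 log2 CPM in the USP28-KO table and 6.97 in the reconstitution tables. Its transcript is long (12749 bases), and per kb its level was 2.86 and 3.30. POLR1B, the second large subunit, came to 3.0002 and 3.13 per kb. POLR1A minus POLR1B was thus -0.14 in the USP28-KO table and 0.17 in the reconstitution tables, so their order was not the same in both. The order turned per kb of transcript but not per kb of coding sequence, where POLR1A was the higher in both, by 0.64 and 0.95. A length is the same in both tables, so the shift between them is the same under either scaling. POLR1C and POLR1D form the assembly pair, which polymerase III also uses, and stood at 4.51 and 3.28 per kb in the USP28-KO table and at 4.04 and 3.54 in the reconstitution tables. Per kb of coding sequence their order was the other way round, with 5.54 for POLR1C and 6.81 for POLR1D in the USP28-KO table, since the POLR1D transcript of 4592 bases holds 399 coding bases. POLR1E, a peripheral subunit, was at 4.29 and 4.52 per kb.

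The remaining polymerase I subunits were listed under older symbols that the naming rule does not match. These are the stalk subunit POLR1F, listed as TWISTNB, the peripheral subunit POLR1G, listed as CD3EAP, and the zinc-binding subunit POLR1H, listed as ZNRD1. With them, 8 of 8 subunits were present. In the USP28-KO table ZNRD1 was the highest of all 8 at 4.63 per kb of transcript, TWISTNB was at 3.31 and CD3EAP at 2.90. In the reconstitution tables ZNRD1 was at 4.12, TWISTNB at 2.26 and CD3EAP at 2.24, and POLR1E was the highest at 4.52. Per kb of coding sequence POLR1D (6.81) was above ZNRD1 (5.82) in the USP28-KO table. Of the CD3EAP exon bases, 43.5% overlap those of ERCC1 on the opposite strand, and the strand setting of the counting is not given in the sources used here, so its level is uncertain.

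Per kb of transcript, polymerase II had both the highest (POLR2L) and the lowest (POLR2J4) level among the polymerase members, the latter with a noncoding transcript of 6466 bases. POLR2A carries the catalytic site and the C-terminal repeat domain that is phosphorylated during transcription. Its average was 7.89 log2 CPM in the USP28-KO table and 8.46 in the reconstitution tables, or 5.13 and 5.70 per kb. POLR2B, its partner in the active site, reached 5.66 and 5.60 per kb. The order of this pair also differed between the tables, with POLR2A minus POLR2B at -0.53 in the USP28-KO table and 0.10 in the reconstitution tables. This turn appeared per kb of transcript but not without length scaling, where POLR2A was the higher in both, by 0.19 and 0.82 log2 CPM. POLR2A had no coding length here.

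Per kb, the transcripts of the large subunits were more abundant for polymerase II than for the other polymerases in both tables. POLR2A was 4.83-fold above POLR1A and 3.91-fold above POLR3A in the USP28-KO table, and 5.30-fold and 5.34-fold in the reconstitution tables. The size of the first ratio depends on length. On the log2 scale POLR2A minus POLR1A was 2.27 and 2.41 per kb, but 1.35 and 1.49 without length scaling. Without scaling POLR2A was above POLR3A by 1.99 and 2.44. For the second large subunit, POLR2B was 6.32-fold above POLR1B and 7.19-fold above POLR3B in the USP28-KO table. In the reconstitution tables these ratios were 5.56 and 9.58.

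The small subunits that all 3 polymerases use are POLR2E, POLR2F, POLR2H, POLR2K and POLR2L, and all 5 lay above the median of all genes in both tables. Their median was 5.25 per kb in the USP28-KO table. POLR2L, the highest of the 59 members, was at 7.82 in the USP28-KO table and 8.15 in the reconstitution tables, which placed it at percentiles 97.7 and 98.5 of all genes. Of its exon bases 22.5% overlap CD151 on the opposite strand. POLR2E stood at 5.57 and 5.92, POLR2H at 4.69 and 4.76, and POLR2F at 4.62 and 4.81. POLR2K, a zinc-binding subunit, was at 5.25 and 4.58, and was the shared subunit that was lower in the reconstitution tables.

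Among the subunits particular to polymerase II, the stalk proteins POLR2G and POLR2D were far apart, at 6.45 and 3.12 per kb in the USP28-KO table and 6.49 and 3.32 in the reconstitution tables. The gap narrowed per kb of coding sequence, to 7.13 for POLR2G and 6.69 for POLR2D in the USP28-KO table. POLR2C, of the assembly pair, was at 5.80 and 5.70 per kb. POLR2I, a zinc-binding subunit, was at 6.30 and 5.87, and 32.9% of its exon bases overlap TBCB on the opposite strand. POLR2J, the partner of POLR2C, was at 5.58 and 5.63. Its near-identical copies were lower, with 2.87 and 2.72 for POLR2J2, 2.51 and 2.34 for POLR2J3, and 1.60 and 1.48 for the transcribed pseudogene POLR2J4. POLR2J was 8.41-fold above POLR2J3 per kb in the USP28-KO table and 9.78-fold in the reconstitution tables, with a POLR2J3 transcript of 4630 bases beside 932 for POLR2J. The difference was smaller per kb of coding sequence (1.55 and 1.77 on the log2 scale) and without length scaling (0.76 and 0.98). Reads that fit several of these copies could have been split or dropped in counting, so the level of each is uncertain. Without the copies the polymerase II median in the USP28-KO table was 5.57.

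Polymerase III members covered a narrower span than those of polymerase II, from 2.65 (POLR3D) to 4.77 (POLR3K) per kb in the USP28-KO table and from 2.34 (POLR3B) to 4.87 (POLR3C) in the reconstitution tables. The largest subunit POLR3A was at 3.16 and 3.29, and its partner POLR3B at 2.82 and 2.34, so that POLR3A was the higher in both tables, by 0.35 and 0.94. POLR3D and POLR3E, which form a pair related to the factor TFIIF, were at 2.65 and 3.74 in the USP28-KO table and at 2.81 and 3.86 in the reconstitution tables. The zinc-binding POLR3K was at 4.77 and 4.38. CRCP, a stalk protein, has a symbol outside the rule and was at 4.11 and 4.71. With it, 11 of 11 polymerase III subunits were listed.

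POLR3C, POLR3F and POLR3G form the subcomplex that opens the promoter, in which POLR3GL can take the place of POLR3G. POLR3C was at 4.66 in the USP28-KO table and 4.87 in the reconstitution tables, and POLR3F at 4.04 and 3.0002. POLR3G was at 3.97 and 3.05, and POLR3GL at 3.51 and 3.77. POLR3GL minus POLR3G was -0.46 in the USP28-KO table and 0.72 in the reconstitution tables, so POLR3G was the higher paralogue in the former and POLR3GL in the latter. The latter order held per kb of transcript and not per kb of coding sequence, where the difference was -1.92 and -0.74. Of the POLR3GL exon bases 21.2% overlap another gene on the same strand in the annotation used here for lengths. The authors' counting is not given in the sources used here, so how reads there were assigned is not known.

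Mediator was listed with 29 of 30 named subunits. The missing name was MED12L, the paralogue of MED12, which was in neither fit, so the pair could not be compared. The members ranged from 1.87 (MED26 and MED28) to 5.55 (MED15) per kb in the USP28-KO table and from 1.79 (MED26) to 5.81 (MED15) in the reconstitution tables. The scaffold MED14 was near the median of all genes in the USP28-KO table, at 3.53, and at 3.74 in the reconstitution tables.

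The tail module, which receives signals from transcription factors, had a median of 4.50 per kb of transcript in the USP28-KO table (n = 5 genes). The order of the modules changed with the length used. Per kb of coding sequence the median of the tail was 4.84, under the head at 5.41 and the middle at 4.94. Per kb of transcript MED15, a target of activators, led the tail at 5.55 and 5.81 in the USP28-KO and reconstitution tables. MED25 stood at 4.75 and 4.83, MED16 at 4.50 and 4.69, and MED24 at 4.41 and 4.38. MED23 was apart from them at 2.51 and 2.09.

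The head module, which contacts polymerase II, had a median of 3.96 in the USP28-KO table (n = 7 genes). Per kb of transcript MED8 was its highest member at 5.10, followed by MED11 at 4.17, MED20 at 3.97, MED6 at 3.96, MED18 at 3.72 and MED22 at 3.69. MED17, a core subunit of the head, was the lowest at 2.99. In the reconstitution tables MED8 (5.21) and MED17 (2.61) again marked the ends. Per kb of coding sequence MED22 was the highest in both tables, at 6.56, with MED8 at 6.20 and 6.30. MED11 overlaps an antisense transcript over 31.1% of its exon bases.

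The middle module had a median of 3.39 in the USP28-KO table (n = 8 genes) and spanned from MED26 at 1.87 to MED10 at 5.19. MED1, the subunit that nuclear receptors bind, was at 4.28 in the USP28-KO table and 4.30 in the reconstitution tables. MED21 was at 3.996 and 3.06, MED4 at 3.66 and 3.12, and MED7 at 3.13 and 2.01, so these 3 were all lower in the reconstitution tables. MED9 was at 3.13 and 3.55. MED31 was at 2.48 and 1.97, and 58.3% of its exon bases overlap TXNDC17 on the opposite strand. MED26, through which elongation factors are recruited, shares 27.2% of its exon bases with a gene on the same strand.

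Subunits placed in the head or the tail by different accounts were MED27, MED28, MED29 and MED30. MED29 was at 4.61, MED27 at 3.48, MED30 at 3.21 and MED28 at 1.87 in the USP28-KO table. The MED28 transcript is 10868 bases long, and per kb of coding sequence its level was 6.21, above MED30 at 4.09. Of its exon bases 32.1% overlap FAM184B on the opposite strand. MED19, placed in the middle or the head, was at 3.56 per kb of transcript in the USP28-KO table and 3.86 in the reconstitution tables.

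In the kinase module, MED12 was at 3.09, MED13 at 2.92 and MED13L at 3.11 per kb of transcript in the USP28-KO table. Per kb of coding sequence they lay farther apart, at 3.19, 3.61 and 4.25. All 3 were below the median of all genes there. In the reconstitution tables MED12 was at 3.63, MED13L at 3.40 and MED13 at 2.28 per kb of transcript. MED13 links the module to the rest of Mediator, and MED13L is its paralogue. MED13 minus MED13L was -0.19 in the USP28-KO table and -1.12 in the reconstitution tables. The partners in this module were also listed. The kinases CDK8 and CDK19 were at 2.06 and 1.995 in the USP28-KO table and at 2.07 and 2.26 in the reconstitution tables, and cyclin C (CCNC) was at 4.56 and 4.01.

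The averages of the fits were then set side by side for each gene, as the reconstitution average minus the USP28-KO average in log2 CPM. The fits were normalized apart and their cells differ in genotype and transduction, which cannot be told apart. Whether they were also cultured or sequenced apart is not given in the sources used here. No test could be made. Over the 10976 genes in both fits the median difference was -0.12. It was 0.05 over the members, 0.22 for polymerase I, 0.04 for polymerase II, 0.12 for polymerase III and 0.03 for Mediator. The polymerase I median leaves out TWISTNB (-1.05), CD3EAP (-0.65) and ZNRD1 (-0.51), and that of polymerase III leaves out CRCP (0.60). With all its subunits the middle values of polymerase I would be -0.46 (POLR1C) and 0.13 (POLR1B), so no direction is given for it. Across genes the averages went together, with Pearson's r = 0.94 over all genes and 0.96 over the 59 members.

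**Figure D2:**
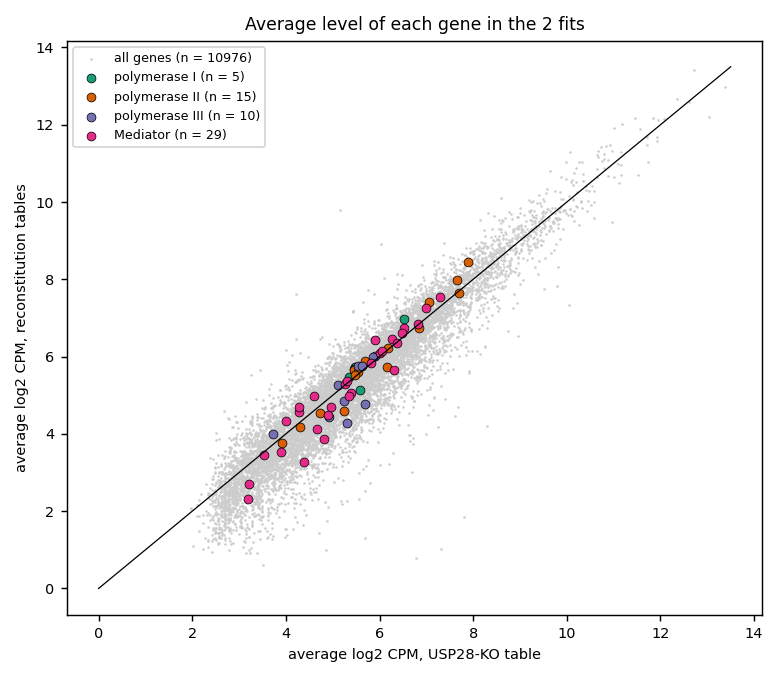
Average log2 CPM of each gene in the USP28-KO table (horizontal) and the reconstitution tables (vertical). Grey points are all 10976 genes in both fits, coloured points the members, and the line marks equal averages; members lie on both sides of it, from MED30 (3.19 and 2.33) to POLR2A (7.89 and 8.46).

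A difference of at least 0.5 was counted in either direction. Of all genes, 9.39% were higher by that much in the reconstitution tables and 24.8% were lower. Among the members 2 of 59 (3.39%) were higher, POLR2A by 0.57 and MED12 by 0.54. A further 9 (15.3%) were lower, which is under the share of all genes in both directions. MED7 differed by -1.12, POLR3F by -1.04, MED21 by -0.94, POLR3G by -0.92, MED30 by -0.86, POLR2K by -0.66, MED13 by -0.65, MED4 by -0.53 and MED31 by -0.51. No polymerase I member named by the rule passed 0.5 in either direction, though the polymerase I subunits under older symbols, given below, did. Of the 9, 4 belong to the middle module of Mediator, whose 8 members had a median difference of -0.42, and none is assigned to the head or the tail alone. The module was singled out after the values were seen, and the median GC content of its members was 44.1%. Of all genes with 34.3 to 44.6% GC, 46.9% were lower by at least 0.5, with a median difference of -0.46. Nothing particular to the module is therefore read from its values. Among the subunits under older symbols, those of polymerase I, TWISTNB (-1.05), CD3EAP (-0.65) and ZNRD1 (-0.51), were lower. CRCP of polymerase III was higher by 0.60.

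GC content moved with this difference across all genes. Pearson's r was 0.42 over 10744 genes and 0.62 over the 59 members, a description over genes that share libraries and are not independent. The 9 lower members had a median transcript GC content of 38.7% (34.3 to 44.6), the 2 higher ones of 55.4%, and the 48 others of 50.4%. Of all genes, the lower ones had a median of 40.7% and the higher ones of 54.0%. Within the GC range of the 9 lower members, a range set after their values were seen, 1851 of 3947 genes (46.9%) were lower by at least 0.5, and above it 10.6% were. It held 18 members, among them the 9 lower ones by construction, so the members' counts in it are no comparison. The part of GC content in the difference was not tested.

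**Figure D3:**
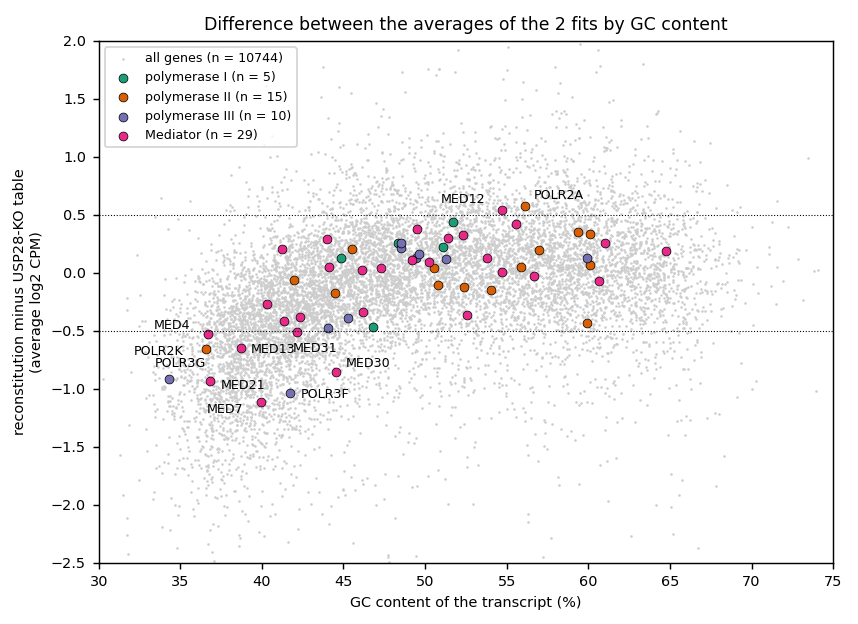
Reconstitution average minus USP28-KO average (log2 CPM) against the GC content of the transcript in percent, for 10744 genes (grey) and the members by complex (coloured); the dotted lines mark 0.5 in each direction, and 47 genes lie outside the axes. The members past the lower line all have a GC content of 44.6% or less, and POLR2A and MED12 lie above the upper line.

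The factors that work with these enzymes were listed throughout, from lists of general factors. Of the polymerase I factors 7 of 7 were present in both fits, from UBTF, which binds the ribosomal DNA promoter, at 5.48 per kb to TAF1A, a subunit of the selectivity factor, at 1.94 in the USP28-KO table. The general factors and assembly proteins of polymerase II were 24 of 24, from the kinase CDK7 of TFIIH at 5.67 to RPAP2, a phosphatase of the polymerase tail, at 0.36. For polymerase III all 16 factors were listed, from the TFIIIC subunit GTF3C6 at 7.22 to GTF3C4 at 1.97. The transcripts of RPAP2 and GTF3C4 are long (16993 and 9043 bases). Without length scaling they were at 4.45 and 5.15 log2 CPM, and other genes of their lists were the lowest, at 2.89 and 3.38. The mitochondrial polymerase POLRMT, which is a single protein of separate origin, was at 3.98, with TFAM at 3.67 and TFB2M at 4.07.

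Between the fits, by at least 0.5, 3 of 7 polymerase I factors, 11 of 24 polymerase II factors, 4 of 16 polymerase III factors, 2 of 3 mitochondrial genes and 1 of 3 kinase partners were lower in the reconstitution tables, and none of them was higher. Over all genes 24.8% were lower and 9.39% higher. No test was made, so nothing particular to these lists is read from the counts. Their median differences were -0.44, -0.38, -0.16, -0.67 and 0.01. The lowest difference was that of RPAP3 (-1.68), an assembly factor of polymerase II, followed by TAF1D (-1.66) and BDP1 (-1.54), a subunit of the polymerase III factor TFIIIB. The median GC content was 42.5% over the polymerase I factors, 40.1% over the polymerase II factors and 52.0% over the polymerase III factors, beside 48.1% over all genes.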

How the data were processed

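RNA of HLF cells in 5 conditions, with 1 deposited sample each, was sequenced by the authors. Total RNA was made into libraries with a NEBNext Ultra kit, sequenced on a NovaSeq, aligned with STAR (2.5.4) to hg19 and compared with edgeR (3.26.8), by the study's methods and the submitters' processing notes. The counting, its strand setting, the filter on low genes and the number of libraries per condition are not given in the sources used here.

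The deposited files are 3 comparison tables. The log2 values used are the average log2 CPM per gene that the authors' edgeR fit gave over all its libraries. The tables also hold the authors' fold changes, F statistics, p-values and adjusted p-values, which were not used or printed. No count per sample was used, so the test planned for counts was not made, and 0 columns of per-sample values stayed without a sample. The filter was in place before deposition, with lowest averages of 1.70 and 0.40 log2 CPM.

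Levels were divided by the length in kb of the longest protein-coding transcript (GENCODE 29, GRCh38) or, where a gene had none (POLR2J4, for example), of its longest transcript of any type. A length was found for 97.8% and 96.7% of genes, and a coding length for 10428 and 11273 genes. For 5 genes, POLR2A among them, the transcript annotated with a genome sequence error was used as the coding one. The reads behind an average were estimated from the common step of low averages, without taking off the constant that edgeR adds, so they are upper values. The step search was checked only on simulated data made with a common step, at totals below the estimate for the reconstitution tables. That check does not cover averages over libraries of unequal size. Every member could be named, but 1 is not reported here by itself and is left out of the plot of levels by subunit; it stays in counts and medians. Other pathway genes were named as the highest and lowest of each list per kb, and the 3 with the lowest difference were chosen after their values were seen. The members and lists were chosen with earlier results of these data known. The tools were pandas 2.3.3 and numpy 2.4.6 under Python 3.11.15, with matplotlib 3.10.9 for plots and scipy 1.17.1 for intervals. Alternatives were the coding length, no length scaling, a minimum of 3 log2 CPM, the other fit, older symbols and shared subunits, and, chosen after seeing the data, the median transcript length and the removal of the POLR2J copies.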

Additional observations from a re-analysis of the deposited data

How the results depend on the processing

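The counts of listed subunits did not move with a minimum of 3 log2 CPM in the USP28-KO table, or with the reconstitution tables without that minimum, under which MED30 (2.33) and MED31 (2.69) lie there. Counting older symbols gave 8 for polymerase I and 11 for polymerase III. The median level per length moved with the length used. With coding length it was 4.92 for polymerase I, 6.77 for polymerase II, 4.86 for polymerase III and 4.88 for Mediator, and without length scaling 5.48, 5.69, 5.43 and 5.31. In the reconstitution tables it was 3.54, 5.60, 3.53 and 3.70. With the median transcript length, chosen after seeing the data, it was 4.42, 5.76, 4.24 and 4.45. Counting shared subunits in each polymerase gave 4.56 for polymerase I and 4.04 for polymerase III, and removing the POLR2J copies, also chosen after seeing the data, gave 5.57 for polymerase II. The difference POLR3GL minus POLR3G was -1.92 with coding length, -1.95 without scaling and -2.49 with the median transcript length. In the reconstitution tables it turned to 0.72 per kb of the longest transcript. There it kept its sign with coding length (-0.74) and without scaling (-0.78). MED13 minus MED13L was -0.64, -0.67 and -0.69 under the same lengths and -1.12 in the reconstitution tables. The cause of the change between tables was not tested.

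MED12 minus MED12L could not be computed because MED12L was not listed, and shared subunits do not apply to Mediator. No paired analysis was possible because the deposited tables hold averages with no samples, and no result comes from a test. Leaving out a replicate could not be done for the same reason. Depth limits the lowest members, MED30 and MED31, whose averages equalled 70 and 71 reads in the USP28-KO table, with the constant that edgeR adds included.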
